A study of Mus musculus with 15 samples.

Results

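Ppp1r9b, Homer3, Camk1d and Camk4 are 4 mouse genes of postsynaptic calcium signalling and of the dendritic spine scaffold, the protein framework under the small protrusions that receive excitatory input. Every entry of the deposited promoter-capture table that carried one of these names was taken, which gave 50 promoter-fragment entries of 36353, for 4 promoters of 4429. The genes were chosen by their interaction scores in the same table. A Ppp1r9b and a Camk1d fragment had been selected on Early against Basal, where all Basal libraries scored them and none of the Early libraries did, and which comparison drew attention to Homer3 and Camk4 is not recorded. The values of all 4 genes are therefore described without a p-value.

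Promoter-capture Hi-C joins, sequences and enriches DNA fragments that lie close to chosen promoters in the nucleus. Hippocampal nuclei were sorted with antibodies to the neuronal protein NeuN and to GFP, from mice labelled ArcCreERT2 x R26R-STOP-floxed-eYFP with genotype +/+, and this genotype was common to all 4 groups. In this line the Arc promoter drives a Cre recombinase that works only in the presence of 4-hydroxytamoxifen, so that a yellow fluorescent protein marks cells in which Arc was active in that window. The libraries were titled Basal (3 libraries), Early, Late and Reactivated (4 libraries each). Per the labels' protocols, 4-hydroxytamoxifen was given 1 h ahead of fear conditioning to a context, and brains were taken within 1.5 to 2 h of it or on day 5, with or without a second exposure to the cue. Each sample also has a treatment label, but its collection day runs from 0 to 14 in the order of the samples, and it gives no recall for any of them, Reactivated included. Those labels disagree with the protocol and were not used, so the times of the titled groups, the recall of the Reactivated group and the treatment of Basal mice are uncertain here. No ages are given. Hippocampi from 10 to 12 mice were combined to give 10000 nuclei for a condition, so a library does not stand for an animal. The table holds contact scores and no expression values, so the neuronal identity of the nuclei could not be checked against marker genes.

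Calcium that enters a spine during synaptic activity binds calmodulin, and the loaded calmodulin switches on a family of kinases. Ppp1r9b encodes spinophilin, which binds actin filaments and holds protein phosphatase 1 in the spine. Homer3 encodes a Homer protein, a scaffold that links group I metabotropic glutamate receptors to Shank proteins and to inositol trisphosphate receptors on internal calcium stores. Camk1d encodes the delta form of calcium/calmodulin-dependent protein kinase I. Camk4 encodes calcium/calmodulin-dependent protein kinase IV, a largely nuclear kinase that phosphorylates the transcription factor CREB. Both kinases are themselves activated by an upstream kinase that also needs calmodulin.

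The promoter sequences are shown because the contacts described below are listed under the names of these genes. RefSeq promoter windows on build GRCm38.p6, each 300 bases long, were given for 3 of the 4 genes, with 2 start sites for Camk1d. The contacted fragments are on build mm9, so the promoter positions cannot be set beside them. Capitals mark the cutting site of HindIII, the enzyme that defined the fragments.
Ppp1r9b, chr11:94990962-94991261, plus strand: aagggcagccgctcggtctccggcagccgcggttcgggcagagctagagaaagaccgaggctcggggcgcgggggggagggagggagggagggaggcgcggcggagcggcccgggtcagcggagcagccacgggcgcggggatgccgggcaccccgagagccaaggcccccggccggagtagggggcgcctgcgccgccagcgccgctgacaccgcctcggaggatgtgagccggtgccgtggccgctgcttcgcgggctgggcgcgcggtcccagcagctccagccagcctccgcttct
Homer3, chr8:70282749-70283048, plus strand: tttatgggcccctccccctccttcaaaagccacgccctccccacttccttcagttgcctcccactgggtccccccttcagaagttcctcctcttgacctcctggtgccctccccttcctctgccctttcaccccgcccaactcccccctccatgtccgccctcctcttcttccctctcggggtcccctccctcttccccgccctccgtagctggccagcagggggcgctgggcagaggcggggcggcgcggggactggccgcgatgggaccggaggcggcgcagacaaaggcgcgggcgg
Camk1d, chr2:5714713-5715012, minus strand: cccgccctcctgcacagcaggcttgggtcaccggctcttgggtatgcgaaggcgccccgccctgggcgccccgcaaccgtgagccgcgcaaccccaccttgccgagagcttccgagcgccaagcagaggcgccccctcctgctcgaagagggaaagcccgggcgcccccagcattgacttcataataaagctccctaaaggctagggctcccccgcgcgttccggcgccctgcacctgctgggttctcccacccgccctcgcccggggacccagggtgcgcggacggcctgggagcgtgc
Camk1d, chr2:5675997-5676296, minus strand: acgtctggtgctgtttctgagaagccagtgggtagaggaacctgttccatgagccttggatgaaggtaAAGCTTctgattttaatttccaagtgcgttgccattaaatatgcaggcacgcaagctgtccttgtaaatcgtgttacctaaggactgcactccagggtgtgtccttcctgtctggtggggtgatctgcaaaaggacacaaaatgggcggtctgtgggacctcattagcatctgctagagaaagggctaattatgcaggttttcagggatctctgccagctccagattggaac
The windows differ in base composition. The Ppp1r9b window is 77.3% G or C with 39 CpG pairs, the Homer3 window 69.7% with 19, and the upstream Camk1d window 71.3% with 29. The second Camk1d window is 48.7% G or C with 5 CpG pairs and holds 1 HindIII site. The median over 4218 promoters of genes in the table was 60.7% G or C and 19 CpG pairs. The cyclic AMP response element TGACGTCA, to which CREB binds, was searched on both strands, as were its core TGACG, which lies inside it, and the E-box CACGTG. None of the 3 motifs is in any of the 4 windows. These motifs occur in 1.79%, 20.8% and 7.15% of 32851 RefSeq promoter windows of the same length. HindIII sites occur in 7.45% of those windows. Which Camk1d start site was baited is not known here.

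The score is a whole number of 2 or more that the authors listed for a promoter and a fragment in a library, and no score was listed in most cells of the table. A called contact here is a score of 5 or more. Libraries differed widely in size: Reactivated libraries 1 and 2 scored 35 and 388 entries of the table, against 11574 and 12133 in Reactivated libraries 3 and 4. The other 11 libraries scored between 1715 and 8296. Some libraries of a group also overlapped. Joining those that shared at least 40% of the entries of the smaller library gave 9 sets, with 49.1% shared by Late 1 and 2 and 82.0% to 100% in the other pairs: in Basal, libraries 1 and 2 form a set and library 3 stands alone; in Early, libraries 3 and 4 form a set and libraries 1 and 2 each stand alone; in Late and in Reactivated alike, libraries 1 and 2 form a set and libraries 3 and 4 another. Nothing in the labels says whether libraries of a set came from separate nuclei, so p-values measure the spread between libraries, which may be technical. Libraries of a set differed in score on the fragments they shared, with a median ratio of 1.70 in Basal 1 over Basal 2 and of 0.884 in Reactivated 3 over Reactivated 4. Their score sums also differed, at 2183123 and 1220044 in Basal 1 and 2 and 8326870 and 9590409 in Reactivated 3 and 4. The part of library size in these ratios was not tested. None of the 4 promoters had a score in Reactivated library 1 or 2, so every Reactivated value below comes from libraries 3 and 4, a single set.

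Ppp1r9b, the spinophilin gene, had 7 listed fragments on chromosome 11, as many as or fewer than 2187 of the 4429 promoters. Its most recurrent fragment, chr11:94859254-94879092 on build mm9, is 19839 bp long and was scored in 8 libraries. It scored 1888, 877 and 66 in the 3 Basal libraries and had no score in any Early library. It scored 37 in Late 1, none in Late 2, 644 in Late 3 and 461 in Late 4, and 1492 and 1789 in Reactivated 3 and 4. The fragment was thus scored in all Basal libraries, in part of the Late and Reactivated libraries and in no Early library. It had been selected on its Basal and Early values. Within each library that scored it, it ranked high, between percentile 82.0 of the scores in Late 3 and percentile 97.8 in Basal 1.

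A second Ppp1r9b fragment, chr11:94826182-94838815 has its centre at -36.7 kb from the first, toward lower coordinates, and had nearly the opposite pattern. It scored 93, 117 and 78 in Early 1, 3 and 4, with no score in Early 2. In Late 3 and 4 it scored 79 and 57, and no Basal or Reactivated library listed it. Late 3 and 4 are the only libraries that scored both fragments, and there the fragment at 94859254 scored higher. Early 3 and 4 also scored a fragment 68.1 kb above the recurrent one, chr11:94934599-94939912, at 224 and 97. The other 4 fragments appeared in 1 library each, with scores of 8 to 34. They include chr11:119086629-119088445, far from all the others, with a score of 8 in Basal 3.

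**Figure D1:**
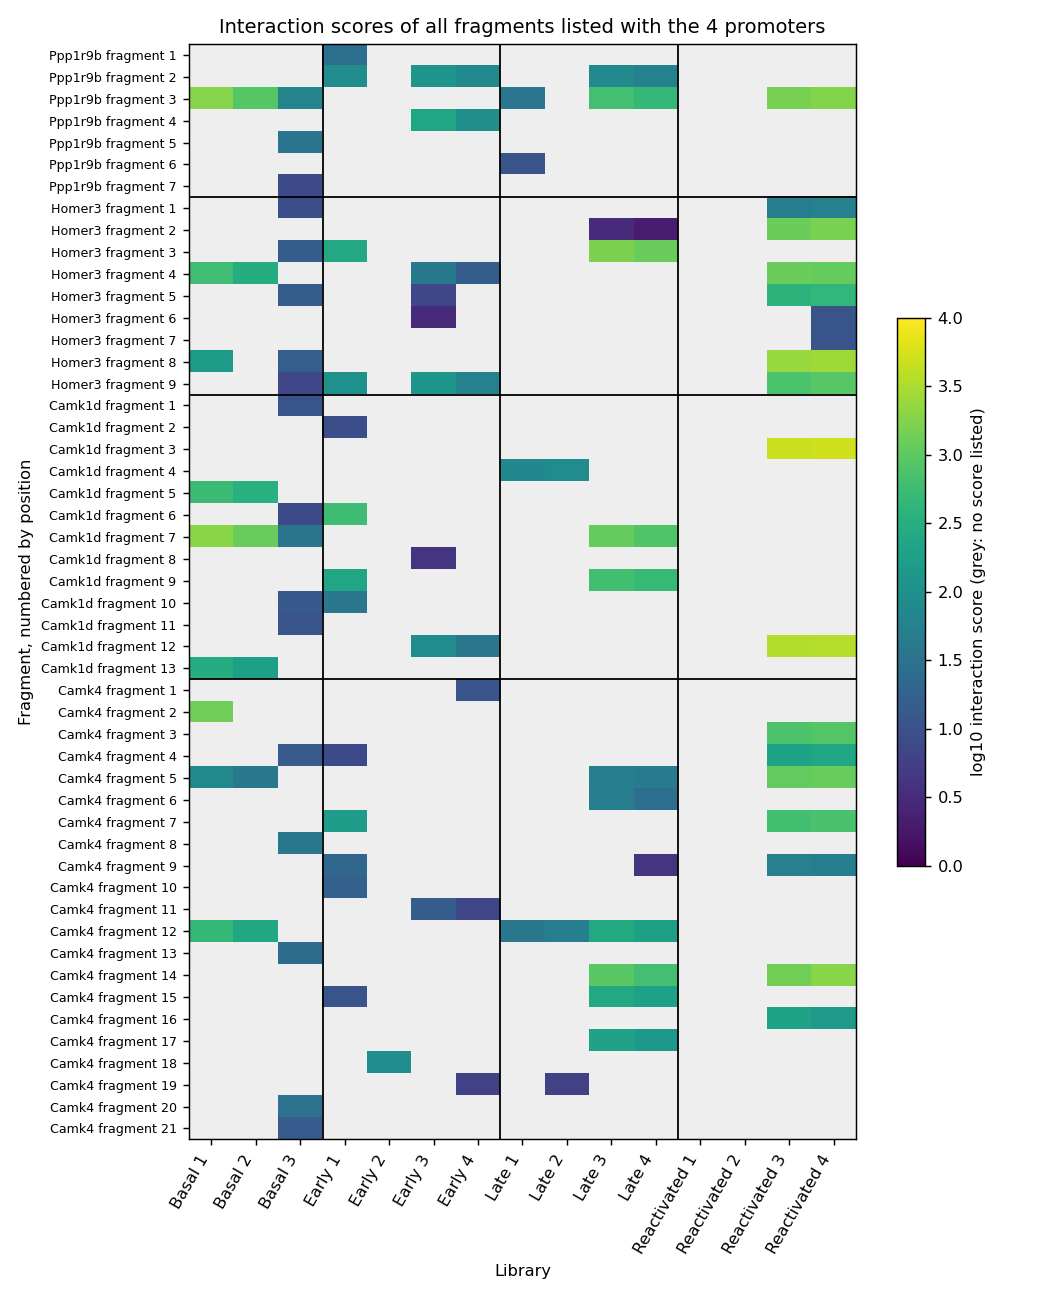
Interaction scores of all 50 fragments (lines, numbered by position within each promoter) in the 15 libraries (columns, by group), as log10 of the score, with grey where none is listed. Ppp1r9b fragment 3 and Camk1d fragment 7 are scored in all 3 Basal libraries and no Early library, and Reactivated libraries 1 and 2 are grey throughout.

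Homer3 had 9 listed fragments on chromosome 8, and most of them were shared. Of these fragments, 6 were also listed with other promoters, against 0 of 7 for Ppp1r9b, 3 of 13 for Camk1d and 2 of 21 for Camk4. Of all entries, 15.4% were shared in this way. A shared fragment carries the same score in each listing, so its score cannot be given to Homer3 alone. The most recurrent fragment, chr8:72770464-72777246, is shared with Sugp2. It scored 588 and 301 in Basal 1 and 2, 41 and 15 in Early 3 and 4, and 1215 and 1126 in Reactivated 3 and 4. It had no score in Basal 3, in Early 1 or 2 or in any Late library.

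Late libraries scored Homer3 contacts only at 2 neighbouring small fragments, both shared with Ncan, Slc25a42 and Sugp2. The fragment chr8:72736892-72737110, 219 bp long, scored 3 and 2 in Late 3 and 4 and 1286 and 1559 in Reactivated 3 and 4. The fragment next to it, chr8:72737517-72739132, scored 15 in Basal 3, 262 in Early 1, and 1616 and 1199 in Late 3 and 4, with no score in Reactivated. High scores in Late and in Reactivated therefore sat on different fragments of the same stretch. When fragments within 10 kb were merged, chr8:72728726-72739132 was a single region with scores in all 4 groups.

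The highest Homer3 scores were at chr8:72999212-73008218, 230 kb above the recurrent fragment and shared with Tmem59l: 2446 and 2666 in Reactivated 3 and 4, against 152 in Basal 1 and 16 in Basal 3. Fragment chr8:72794183-72803749, listed with Homer3 alone, followed the same order of scores. It had 386 and 447 in Reactivated 3 and 4, 15 in Basal 3 and 7 in Early 3. The fragment chr8:72728726-72735775 scored 47 and 58 in Reactivated 3 and 4 and 9 in Basal 3. By percentile within each library, Basal 3 ranked above Reactivated 3 and 4 at both of these fragments. At 72794183 it stood at 58.0 against 54.3 and 56.5, and at 72728726 at 31.2 against 22.3 and 25.6. At 72999212 the order held, with 92.9 and 92.6 in Reactivated 3 and 4 against 30.9 in Basal 1 and 61.0 in Basal 3. A distant fragment, chr8:107870389-107875069, is shared with Plekhg4 and Zdhhc1 and lies more than 5 Mb from the gene's other fragments. It scored 7 in Basal 3, 102 in Early 1, 125 and 57 in Early 3 and 4, and 727 and 923 in Reactivated 3 and 4. The remaining 2 fragments both scored 11 in Reactivated 4, and the one at 72818111 also scored 3 in Early 3.

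Camk1d, the gene of CaM kinase I delta, had 13 listed fragments on chromosome 2. Its most recurrent fragment, chr2:5643033-5644952, scored 1959, 1193 and 34 in the 3 Basal libraries, none in the 4 Early libraries, and 1120 and 806 in Late 3 and 4. It had no score in Late 1, Late 2 or any Reactivated library. In the 5 libraries that scored it, it stood between percentile 84.8 and percentile 98.1 of the scores. Basal and Early libraries do not overlap for this fragment, which is what it was chosen for. Fragments scored in every Basal and no Early library made up 0.875% of all entries, and the Ppp1r9b and Camk1d fragments are the 2 among the 50. In both fragments Basal 3, with scores of 66 and 34, was far below Basal 1 and 2 in score. Its median score over the table was 13, against 299 and 194 in those libraries. By percentile the Ppp1r9b fragment stood at 95.7 in Basal 3, against 97.8 and 94.1 in Basal 1 and 2. The Camk1d fragment stood at 84.8, against 98.1 and 97.9.

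Of the 13 Camk1d fragments, 8 were scored in a single group, and the fragments also differed between library sets of a group. The strongest of all its scores, 4729 and 5184, were at chr2:5337863-5338867 in Reactivated 3 and 4, at -306 kb from the recurrent one, and no other library listed this fragment. Close above it, chr2:5356070-5357203 scored 71 and 87 in Late 1 and 2 alone. The fragment chr2:5595620-5597267 scored 555 and 342 in Basal 1 and 2 alone. Its direct neighbour chr2:5597270-5600591 scored 8 in Basal 3 and 566 in Early 1. Fragment chr2:5728482-5732084, 86.3 kb above the recurrent one, scored 228 in Early 1 and 624 and 474 in Late 3 and 4. Fragments at 4841365, 4939171 and 5727941 were scored in 1 library each, at 11 in Basal 3, 9 in Early 1 and 4 in Early 3.

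Camk1d had 4 of its 13 fragments more than 5 Mb from the median position of its contacts, against 1 of 7 for Ppp1r9b, 1 of 9 for Homer3 and 2 of 21 for Camk4, and 15.4% of all entries. A pair of adjoining fragments carried most of this distant signal. Fragment chr2:148555443-148555956, also listed with Napb, scored 88 and 39 in Early 3 and 4 and 3504 and 3548 in Reactivated 3 and 4. Fragment chr2:148555959-148556720, also listed with Gzf1, Napb and Sstr4, scored 299 and 179 in Basal 1 and 2. The others were chr2:80439132-80448058, shared with Nckap1, with 13 in Basal 3 and 38 in Early 1, and chr2:126394871-126397492 with 11 in Basal 3. All 8 distant fragments of the 4 genes lay within 30 kb of a fragment listed for another promoter, and 4 of the 8 were themselves listed with another promoter. Of all 5599 distant entries, 63.4% had such a neighbour, and 15.0% were listed with several promoters. Contacts between baited fragments could not be told from other contacts, because the table used here has no positions of the baits.

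**Figure D2:**
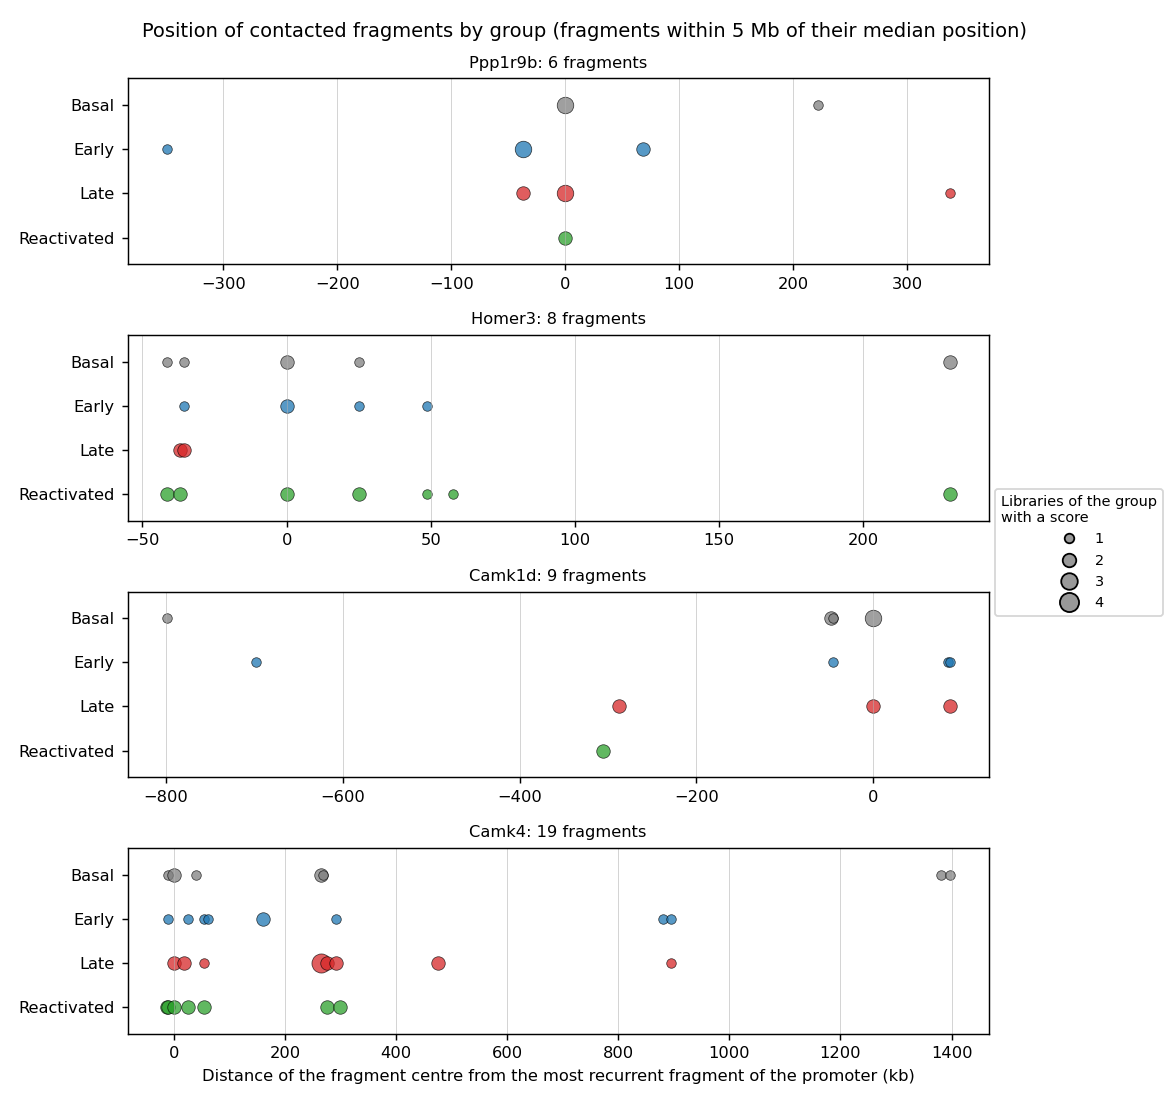
Distance in kb of each fragment's centre from the most recurrent fragment of its promoter, by group from Basal at the top to Reactivated at the bottom, for the fragments within 5 Mb. Point size is the number of libraries of the group that scored the fragment. Homer3 contacts sit within 230 kb of the recurrent fragment and Camk4 contacts extend to 1396 kb above it.

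Camk4, the gene of the nuclear kinase CaM kinase IV, had 21 listed fragments on chromosome 18. Only 260 of 4429 promoters had as many or more. Its fragments within 5 Mb spread over 1410 kb, against 692 kb for Ppp1r9b, 279 kb for Homer3 and 891 kb for Camk1d. The only Camk4 fragment scored in every library of a group was chr18:33326323-33327547. It scored 39, 51, 268 and 187 in the 4 Late libraries and 460 and 250 in Basal 1 and 2, and no Early or Reactivated library listed it. Fragments scored in every Late and no Early library made up 0.239% of all entries.

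Near that fragment, chr18:33334122-33342034, shared with Wdr36, scored 948 and 635 in Late 3 and 4 and 1379 and 1930 in Reactivated 3 and 4. Between the 2 lies chr18:33329767-33334119, scored 26 in Basal 3 alone. Merged within 10 kb, this stretch was scored in all 3 Basal libraries, all 4 Late libraries and Reactivated 3 and 4, and in no Early library. Further up, chr18:33353818-33355907 scored 11 in Early 1 and 270 and 198 in Late 3 and 4. The next fragment, chr18:33356995-33366443, scored 208 and 145 in Reactivated 3 and 4 alone.

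The fragment chr18:33056694-33068129, scored in 6 libraries like the one at 33326323 and taken as the zero point of the plot of positions, had 79 and 42 in Basal 1 and 2, 51 and 46 in Late 3 and 4, and 1080 and 1155 in Reactivated 3 and 4. No Early library listed it. Around it, Reactivated 3 and 4 also scored 771 and 851 at chr18:33048521-33051050, which no other library listed. They scored 212 and 242 at chr18:33051942-33052959, where Basal 3 had 14 and Early 1 had 8. At chr18:33087038-33087775 they scored 620 and 718, against 158 in Early 1. At chr18:33115784-33117659 they scored 56 and 50, against 4 in Late 4 and 21 in Early 1. Reactivated 3 and 4 thus held the highest scores at 5 fragments of this stretch, in the set that also holds the largest score sums of the table. Between these fragments lie others that no Reactivated library listed. They are chr18:33080133-33083406, with 49 and 28 in Late 3 and 4, and chr18:33102246-33103248, with 40 in Basal 3. Percentiles within each library gave another order at 33051942, with 54.5 in Basal 3 against 43.3 and 45.7 in Reactivated 3 and 4. The same was so at 33087038, with 76.7 in Early 1 against 64.6 and 66.2. Reactivated 3 and 4 stayed highest at 33056694, at 77.7 and 76.5 against 35.3 in Late 4. At 33115784 they stood at 24.2 and 24.2, against 21.4 in Early 1. The part of library size in these values was not tested.

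The other 11 Camk4 fragments, those at 33080133 and 33102246 included, were scored in 1 or 2 libraries. The highest of these scores was 1382 in Basal 1, at chr18:10798499-10798746, a fragment of 248 bp. This fragment lies more than 5 Mb from the median position of the gene's contacts. Basal 2, which shares most of its fragments with Basal 1, did not list it. Late 3 and 4 scored 202 and 136 at chr18:33538076-33539335, and Early 2 scored 91 at chr18:33943183-33944026. That was the only score of any of the 4 promoters in Early 2. The remaining 8 fragments, those at 33080133 and 33102246 among them, scored between 6 and 49.

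Neighbouring fragments often alternated between libraries. In 5 places a promoter was listed with 2 fragments that lie directly side by side, with a gap of at most 3 bp, and in 4 of these no library scored both. They are the Camk1d pairs at 5595620, 5727941 and 148555443 and the Camk4 pair at 33329767. The exception is the Homer3 pair at 72818111, where Reactivated 4 scored both at 11. Of all such pairs, 1466 of 2949 (49.7%) had no library in common. Merging fragments within 10 kb turned the 50 fragments into 37 regions, of which 18 were scored in a single group (48.6%, against 62.8% of regions of all promoters). Without merging, 27 of the 50 were scored in a single group (54.0%, against 67.1% of all entries), and none in all 4 groups. By gene, 5 of 7 fragments of Ppp1r9b, 1 of 9 of Homer3, 8 of 13 of Camk1d and 13 of 21 of Camk4 were seen in a single group.

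Of the 27 fragments scored in a single group, 11 were scored in Basal alone, 8 in Early alone, 4 in Late alone and 4 in Reactivated alone. The Basal share was 22.0% of the 50, against 8.92% of all entries. Library Basal 3 gave 8 of these 11, with scores of 8 to 40. With Basal 1 and 2 it shares 18.0% and 18.1% of the smaller library's entries. Other pairs of a group outside a set shared 8.10% to 15.6%. The median score of Basal 3 over the table was 13, against 299 and 194 in Basal 1 and 2 and 18 and 19 in Late 1 and 2.

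The number of called contacts per library sums up how far each promoter was linked. Ppp1r9b had 1, 1 and 3 called contacts in Basal libraries 1 to 3, 2, 0, 2 and 2 in Early 1 to 4, 2, 0, 2 and 2 in Late 1 to 4, and 0, 0, 1 and 1 in Reactivated 1 to 4. The groups overlap, with means of 1.67 ± 1.15 for Basal (SD, n = 3), 1.5 ± 1.0 for Early, 1.5 ± 1.0 for Late and 0.5 ± 0.577 for Reactivated (SD, n = 4 each). Homer3 had 2, 1 and 5 in Basal, then 2, 0, 3 and 2 in Early, then 0, 0, 1 and 1 in Late, and 0, 0, 6 and 8 in Reactivated. Late had the lowest mean for Homer3, at 0.5 ± 0.577 (SD, n = 4), and Reactivated held its highest counts beside 2 libraries at 0.

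Camk1d had 3, 3 and 5 called contacts in Basal, then 4, 0, 1 and 1 in Early, then 1, 1, 2 and 2 in Late, and 0, 0, 2 and 2 in Reactivated. All 3 Basal libraries stood above all Late and Reactivated libraries, and Early 1 fell inside the Basal range. The means were 3.67 ± 1.15 for Basal (SD, n = 3), and 1.5 ± 1.73 for Early, 1.5 ± 0.577 for Late and 1.0 ± 1.15 for Reactivated (SD, n = 4 each). Camk4 had 3, 2 and 5 in Basal, then 5, 1, 1 and 3 in Early, then 1, 2, 6 and 6 in Late, and 0, 0, 7 and 7 in Reactivated. Its counts differed more between library sets of a group than between group means, which ran from 2.5 ± 1.91 in Early to 3.75 ± 2.63 in Late (SD, n = 4 each). The share of all entries that were called also differed between libraries. The 7 contacts of Camk4 in Reactivated 3 and 4 are 33.3% of its fragments, where 30.4% and 32.1% of all entries were called, and its 6 in Late 3 and 4 are 28.6%, where 21.5% and 21.0% were. The 6 and 8 contacts of Homer3 in Reactivated 3 and 4 are 66.7% and 88.9% of its fragments. Its single contact in Late 3 and in Late 4 is 11.1%. The 2 contacts of Camk1d in Reactivated 3 and 4 are 15.4% of its fragments, and its 5 in Basal 3 are 38.5%. For Ppp1r9b the single contact in Reactivated 3 and in Reactivated 4 is 14.3%, and the 3 in Basal 3 are 42.9%. In Basal 3, 16.0% of all entries were called. In Reactivated 1 and 2, 0.0825% and 0.682% of all entries were called. Over the other 11 libraries this share ran from 4.58% in Early 2 to 21.5% in Late 3. The part of library size in the differences between groups was not tested.

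**Figure D3:**
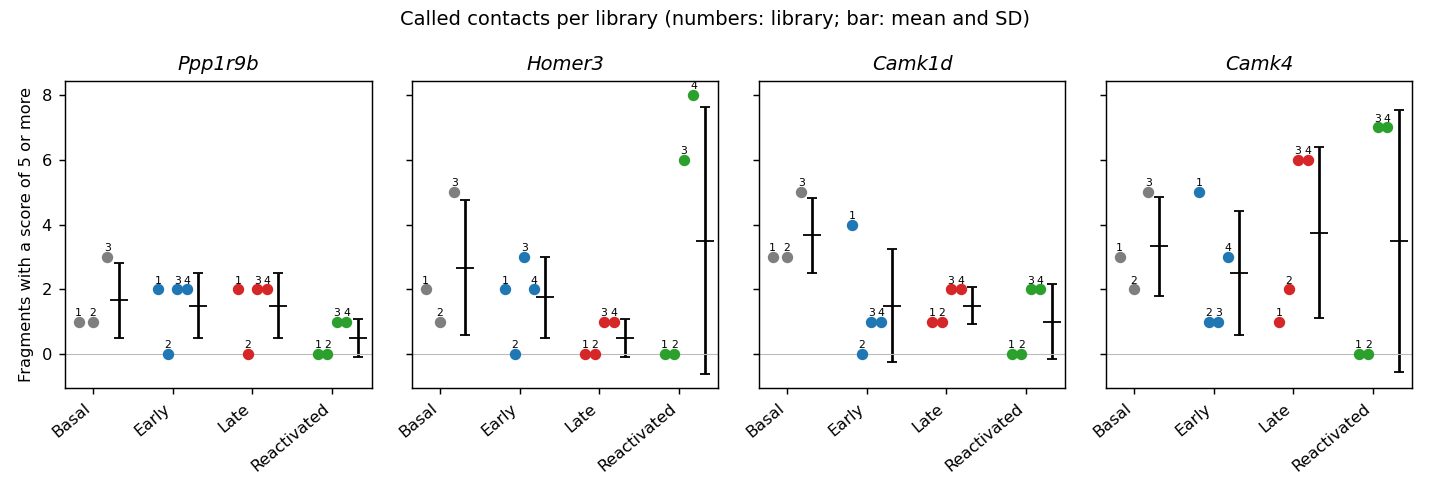
Number of fragments with a score of 5 or more for each promoter, with a point per library (number beside the point) and the mean with SD per group. Basal libraries of Camk1d sit at 3 to 5, above the Late and Reactivated libraries, and Homer3 in Reactivated splits into 0 and 0 against 6 and 8.

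Counted over fragments, Homer3 varied most of the 4 genes between groups. Of its 9 fragments, 66.7% were called in at least 1 Basal library, 44.4% in at least 1 Early library, 11.1% in Late and 88.9% in Reactivated. The same shares over all entries were 27.1% for Basal, 39.9% for Early, 36.8% for Late and 33.8% for Reactivated. Camk1d had 53.8% called in Basal, 38.5% called in Early, 23.1% in Late and 15.4% in Reactivated, so that Homer3 and Camk1d were both lower in Late than in Basal and differed in Reactivated. Ppp1r9b had 42.9% in each of Basal, Early and Late and 14.3% in Reactivated. Camk4 had 38.1%, 42.9%, 33.3% and 33.3% in Basal, Early, Late and Reactivated, above the share of all entries in Basal and within 4 percentage points of it in the other groups. A single fragment of Ppp1r9b makes up 14.3% of its list, and the genes were picked with such values known.

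**Figure D4:**
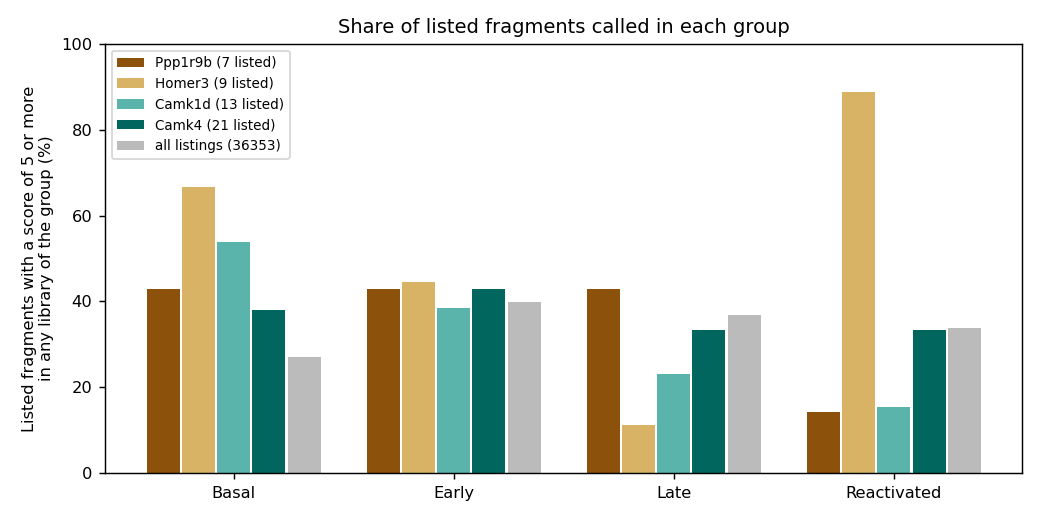
Percentage of the listed fragments of each promoter, and of all 36353 entries, that were called in at least 1 library of a group. Homer3 spans 11.1% in Late to 88.9% in Reactivated, and the grey bars of all entries span 27.1% to 39.9%.

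In Reactivated against Late no entry passed limma, 0.0% of 36353 on the score and 0.0% of 4403 promoters on contact number, with Benjamini-Hochberg adjusted p-values under 0.05 as the threshold. At an unadjusted p under 0.05 there were 9507 entries and 634 promoters. Without Reactivated 1 and 2, which leaves a single library set in that group, 9131 entries and 1238 promoters passed. The Ppp1r9b fragment at 94859254 had a mean asinh score of 4.05 ± 4.67 in Reactivated and 4.57 ± 3.30 in Late (SD, n = 4 each), a difference of -0.53. The sign rests on the sparse libraries: without Reactivated 1 and 2 the difference was 3.52. The Camk1d fragment at 5643033 had no score in Reactivated and averaged 3.77 ± 4.36 in Late, a difference of -3.77. The Camk1d fragment at 5337863, the strongest in Reactivated 3 and 4, averaged 4.60 ± 5.31 in Reactivated and had no score in Late, a difference of 4.60; it was named for that high score.

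In contact number, Ppp1r9b averaged 0.5 ± 0.577 in Reactivated and 1.5 ± 1.0 in Late, a difference of -1.0 contacts. Camk1d averaged 1.0 ± 1.15 in Reactivated and 1.5 ± 0.577 in Late, a difference of -0.5 contacts, which turned to 0.5 without Reactivated 1 and 2. The differences were 3.0 contacts for Homer3 and -0.25 for Camk4, and 6.5 and 3.25 when Reactivated 1 and 2 were left out, so the sign for Camk4 rests on those 2 libraries.

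For Early against Basal and Late against Early the contact numbers are given as descriptions. Early minus Basal came to -0.167 contacts for Ppp1r9b, -0.917 for Homer3, -2.17 for Camk1d and -0.833 for Camk4. Without Basal 3, the values for Ppp1r9b and Homer3 turned to 0.5 and 0.25, and that for Camk4 was 0. Without Early 1 the Camk4 value was -1.67. Late minus Early came to 0 for Ppp1r9b and Camk1d, -1.25 for Homer3 and 1.25 for Camk4. The Camk4 value was 0.5 without Late 3 or without Late 4 and ran up to 2.17 with other libraries left out. The values of 0 took either sign, from -0.5 to 0.5 for Ppp1r9b and from -0.5 to 0.833 for Camk1d, with 1 library left out. Limma called 0.0% of entries and 0.0% of promoters in both comparisons, as in the 3 remaining pairs of groups. At an unadjusted p under 0.05 there were 3868 entries and 201 promoters in Early against Basal and 5505 and 420 in Late against Early. Without Basal 3, which leaves a single set in Basal, 1416 entries passed in Early against Basal.

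Other genes of the same pathways were read from 2 lists. The list of CaM kinases, calmodulins, calcineurin and their partners held 36 genes besides the members, of which 17 were in the table, and the list of spine and postsynaptic density scaffolds held 42, of which 14 were. None of the promoters passed limma on contact number in any comparison. In Early against Basal, 11 scaffold promoters had a higher mean contact number in Early and 3 a lower one, with a median difference of 0.625 contacts. Of the CaM kinase list, 5 were higher, 9 lower and 3 equal, with a median of -0.167. Over all 4403 promoters 48.4% were higher and 40.0% lower, with a median of 0.

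Among the scaffolds, Marcks, an actin-binding substrate of protein kinase C, averaged 3.25 ± 2.5 contacts in Early and 0.667 ± 0.577 in Basal (SD, n = 4 and 3). Nlgn3, a postsynaptic adhesion protein, averaged 1.75 ± 2.06 in Early and 0 in Basal. At the other end, Actn2, an actin crosslinker, averaged 0.75 ± 0.957 in Early and 1.67 ± 0.577 in Basal, and Dbn1, the spine protein drebrin, 1.25 ± 0.957 in Early and 1.67 ± 0.577 in Basal. In the CaM kinase list the lowest difference was that of Camk2g, the gamma subunit of CaM kinase II, with 1.25 ± 1.26 contacts in Early and 4.33 ± 0.577 in Basal. Atp2b2, a calcium pump of the plasma membrane, averaged 0.5 ± 0.577 in Early and 1.67 ± 1.15 in Basal. Itpr1, the inositol trisphosphate receptor that Homer proteins bind, averaged 1.25 ± 1.5 in Early and 0.667 ± 0.577 in Basal, and the calmodulin-binding Pcp4 0.5 ± 0.577 in Early and 0 in Basal.

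In Late against Early the scaffold list had 5 promoters higher and 7 lower and the CaM kinase list 5 and 7, with medians of -0.125 and 0 contacts. All promoters had 49.2% higher and 36.6% lower. Ryr3, a calcium release channel, averaged 5.5 ± 5.2 contacts in Late and 2.75 ± 1.89 in Early (SD, n = 4 each). Camk2d, the delta subunit of CaM kinase II, averaged 3.25 ± 3.77 in Late and 4.5 ± 5.8 in Early, and Itpr1 0.5 ± 0.577 in Late and 1.25 ± 1.5 in Early. Of the scaffolds, Magi2 averaged 2.75 ± 1.5 in Late and 0.5 ± 0.577 in Early, and Tiam1, a Rac exchange factor, 1.75 ± 1.5 in Late and 0.75 ± 0.5 in Early. Nlgn3 averaged 0.25 ± 0.5 in Late and 1.75 ± 2.06 in Early. Ppp1cb, a catalytic subunit of the phosphatase that spinophilin binds, had 0 contacts in Late and 1.5 ± 1.0 in Early.

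In Reactivated against Late the scaffold list had 6 promoters higher and 7 lower and the CaM kinase list 8 and 7, with medians of -0.125 and 0, against 44.0% higher and 42.9% lower over all promoters. All Reactivated means here include libraries 1 and 2, which scored only 35 and 388 entries. The lists were not counted without those libraries, so the directions may rest on them. Itpr1 averaged 3.0 ± 3.46 contacts in Reactivated and 0.5 ± 0.577 in Late, and Creb1, the gene of the CREB factor that CaM kinase IV phosphorylates, 2.75 ± 3.2 in Reactivated and 1.0 ± 0.816 in Late (SD, n = 4 each). Ryr3 averaged 1.75 ± 2.06 in Reactivated and 5.5 ± 5.2 in Late. Of the scaffolds, the actin regulator Cttn averaged 2.75 ± 2.63 in Reactivated and 0.75 ± 0.5 in Late, and its binding partner Cttnbp2 3.0 ± 3.56 in Reactivated and 1.25 ± 1.26 in Late. Magi2 averaged 1.0 ± 1.15 in Reactivated and 2.75 ± 1.5 in Late. Shank3, a scaffold that Homer proteins bind, averaged 0.5 ± 0.577 in Reactivated and 1.75 ± 0.5 in Late.

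The profile of each gene, its mean asinh score over its fragments in the 15 libraries, was set beside those of the 3440 to 3446 other promoters that were scored in at least 5 libraries and shared no fragment with it. The promoters most like Ppp1r9b were Cat, which encodes catalase, Rplp0, a ribosomal protein gene, and Prpf38a, with Pearson r of 0.926, 0.922 and 0.898. For Homer3 they were Dnajb5, Tmem201 and Shc3, with r of 0.986, 0.980 and 0.980. For Camk1d they were Spire2, Yy1 and Sh3gl1, with r of 0.963, 0.944 and 0.937. For Camk4 they were Tmem158, Il17ra and Fkbp2, with r of 0.981, 0.977 and 0.972. Among the 4 genes, Homer3 and Camk4 were most alike, at 0.821, and Ppp1r9b and Homer3 least, at 0.402. All these points come from the same 15 libraries and share their differences in size, so the values describe likeness over libraries only.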

How the data were processed

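Each deposited value is an interaction score that the authors computed for a promoter and a fragment in 1 of 15 libraries, per the file headers, with positions on build mm9, per the submitters' processing notes. The sources used here name neither the program behind the score nor an aligner or a normalization. Scores are whole numbers whose library sums ran from 3114 to 9590409, so a score difference can carry a difference in depth, which is unknown. Group names come from the sample titles, because the treatment labels number the collection days in sample order and name no recall, even for Reactivated.

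Groups were compared with limma 3.58.1 (robust, with variance trend; R 4.3.3, statmod 1.5.0) on asinh(score), with 0 where none is listed, over 36353 entries, and on called contacts over the 4403 promoters with at least 1. All 15 libraries shared a fit, and Benjamini-Hochberg adjusted p-values had to be under 0.05. The fit was also run on scores shuffled within each library, with a high score planted in every Late and no Early library for some entries. Shuffling breaks up the library sets, and 0.239% of real entries were scored in every Late and no Early library. That run therefore does not show how well the fit finds differences in these data. Libraries that shared at least 40% of the smaller library's entries form a set. Same-numbered replicates of different groups correlated at -0.0468 to 0.0665 (21 pairs), so no pairing by number was seen. Libraries of a group outside a set shared only 8.10% to 18.1% of the smaller library's entries. Such low sharing leaves little to correlate, so this check cannot exclude a pairing. The alternatives were other scalings, calling thresholds and filters, library sets as means, a replicate block and libraries left out. Tables were made in Python 3.11.15 with numpy 2.4.6 and pandas 2.3.3, and figures with matplotlib 3.10.9.

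The 4 genes and both gene lists were chosen with earlier results of these data known. All 50 fragments are accounted for, with each library's value where a fragment was scored in at least 3 libraries or in every library of a group. Of each list, the 2 promoters with the highest and the 2 with the lowest difference were named, and for likeness the 3 with the highest r. A gene that this rule selects is not reported here. The 5 Mb, 30 kb and 10 kb distances, the comparison of adjoining fragments and the fragment differences carried through the alternatives were chosen after values were seen.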

Additional observations from a re-analysis of the deposited data

Results flagged for a closer look

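In 69 sets of 4 values (contact numbers, and scores of the fragments given by library, in Early, Late and Reactivated), 10 had a library whose distance from the nearest other exceeded Dixon's critical share of the range. For continuous values chance gives about 1 in 20. A fragment scored in 1 library of 4 meets this criterion at any score, as 8 of the 10 did, so the rate does not apply to them. Early 1 accounts for 6 of them, each a fragment that the other 3 Early libraries did not list. These were 262 for Homer3 at 72737517, 228 for Camk1d at 5728482, and for Camk4 8 at 33051942, 158 at 33087038, 21 at 33115784 and 11 at 33353818. The others were 7 in Early 3 for Homer3 at 72794183, 4 in Late 4 for Camk4 at 33115784, and a Ppp1r9b contact number of 0 in Early 2 and of 0 in Late 2, against 2 in each other library of those groups.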

How the results depend on the processing

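Of 23 differences of the 4 genes followed through up to 24 other settings, 18 had no reversal of a difference other than 0. The Late minus Early contact differences of 0 for Ppp1r9b and Camk1d took both signs. The reversals were these. Ppp1r9b contacts in Early minus Basal came to 0.167 with calling at 10, and to -0.5 to 0.5 with 1 library left out. Homer3 contacts in Early minus Basal came to -1.75 to 0.25 with 1 library left out. In Reactivated minus Late, leaving out Reactivated 1 and 2 gave 0.5 for Camk1d contacts, 3.25 for Camk4 contacts and 3.52 for the Ppp1r9b fragment at 94859254. With 1 library left out the last 2 ran from -1.42 to 0.917 and from -2.05 to 0.822.

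Counts of limma calls depended on single libraries. Leaving out Reactivated 1 and 2, which leaves a single library set in that group, gave 195 entries and 1 promoter in Early against Basal, 236 and 5 in Late against Basal, and 64 and 4 in Late against Early. It gave 9131 entries and 1238 promoters in Reactivated against Late, 9057 and 1280 in Reactivated against Basal, and 9150 and 1293 in Reactivated against Early. Fitted with no variance trend, the entries in this order were 142, 201, 57, 59, 146 and 5, and promoters 2 in Late against Early, 6 in Reactivated against Late, 6 in Late against Basal and 1 in Reactivated against Basal. Calling at 2 gave 15 promoters in Reactivated against Late. With 1 library left out, entries ran from 0 to 1416 in Early against Basal and 0 to 1505 in Late against Basal (highest without Basal 3, which leaves a single set), and from 0 to 4898, 0 to 4160 and 0 to 4657 in Reactivated against Late, Basal and Early (highest without Reactivated 2). Promoters ran from 0 to 7 in Early against Basal, 0 to 18 in Late against Basal and 0 to 27 in Late against Early. In Reactivated against Late, Basal and Early they ran from 0 to 193, 0 to 89 and 0 to 138. The cause was not tested. Entries with no score in the libraries kept were dropped, a choice made after the counts were seen. With them kept, leaving out Basal 3 gave 2093 in place of 1416, and leaving out Early 1 gave 172 in place of 0, both in Early against Basal.

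Without Reactivated 1 and 2, Homer3 contacts (6.5), its fragments at 72770464 and 72999212 and the Camk4 fragments at 33326323 and 33056694 moved past the threshold in Reactivated against Late. Homer3 at 72999212 also did so without Reactivated 1 or 2 alone. Camk1d at 5643033 did so in Early against Basal without Basal 3, but it had been selected on that comparison. The genes were chosen with these scores known, so passing the threshold is no evidence of a difference, and no p-value is given. Leaving out both Reactivated 1 and 2, or Basal 3, also left a single library set in the group. Without Basal 3, the Camk4 fragment at 33326323 passed only with the unscored entries kept, in Reactivated against Basal and against Late, and for Early against Basal and Late against Early alike. The Camk4 fragment at 10798499 passed only with them dropped, in each comparison with Basal. The fragment at 33356995 passed only with them kept in Reactivated against Basal without Reactivated 2. With the replicate block, and with library sets as means, 0 entries and 0 promoters passed in each comparison, as in the fit reported. Whether replicate numbers pair the libraries is not known.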
